A study of Homo sapiens with 8 samples.

Results

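DPPA2, DPPA4, DPPA5, ZFP42, UTF1, L1TD1, PODXL and ZSCAN10 are genes used as markers of the human pluripotent state, and the peaks of SOX2, OCT4 and NANOG beside them are described here. The peaks were those that the authors' lists assign to 1 of these genes on either side, with the transcription start site (TSS) at most 50 kb away. These genes are 8 of the 19657 named in the lists. They held 132 of 201619 peaks, which fell into 61 of 148059 merged regions, where a region joins peaks of different lists that overlap by at least 1 bp. The genes were picked as pluripotency markers and not by the values of their peaks, but with earlier results of these lists known.

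Chromatin immunoprecipitation with sequencing (ChIP-seq) was done for SOX2, OCT4 and NANOG in NT2/D1 and in H9. NT2/D1 is an embryonal carcinoma line from a human germ cell tumour, and H9 is a human embryonic stem cell line. Each of the 6 groups had 1 library, and the labels name no treatment, time point or altered allele for either line. An IgG sample of each line was not analysed here.

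OCT4 and SOX2 bind DNA as partners at composite sites, and NANOG is often found at the same enhancers. These factors switch on each other and a wider set of genes active in the early embryo, embryonic stem cells and embryonal carcinoma. Many genes of that set are silenced on differentiation. The genes described here are used as markers of such cells. They encode chromatin proteins (DPPA2, DPPA4, UTF1), zinc finger proteins (ZFP42, ZSCAN10), RNA-binding proteins (DPPA5, L1TD1) and a cell surface sialomucin (PODXL). The lists hold binding only, so expression of these genes could not be read from them.

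Depth differed between the lines. The NT2/D1 libraries had 10218752 to 23160564 unique tags, against 54046559 to 77649240 in H9. The median peak held 7 to 11 tags in NT2/D1 and 32 to 46 tags in H9. The band width set for peak calling was 200 in NT2/D1 and 2000 in H9. A tag count, a fold enrichment over the IgG control and a score are the authors' own values for each peak, and they rank peaks within a list only. A rank is given below as a top percentage, which is the rank by score as a percent of the peaks in that list. Ranks in lists of different lengths show no change between lines, and with 1 library a group no difference could be set against a replicate error or tested. The title and the source name of the NT2/D1 OCT4 and NANOG libraries name each other's factor, and titles were followed. By the source names, each NT2/D1 value given below for OCT4 would be one of NANOG and the reverse. The false discovery rate (FDR) given by the authors rose with the score in NT2/D1 SOX2 and NANOG, with a Spearman rho of 1.0 over the peaks of each list, and fell with it in the other lists. A high FDR in NT2/D1 SOX2 and NANOG therefore went with a high rank by score, which does not show that such a peak is sound. The IgG control of these lists had 17.1% of its tags unique, against 52.4% for NT2/D1 OCT4 and 68.9% for H9. Their folds rest on that control, and its effect on them was not tested.

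By the TSS in the authors' lists, the start of DPPA2, DPPA4 or L1TD1 lay under a peak. The sequence around each annotated start is shown because these are the promoters on which a factor was called. The sequences are from RefSeq on GRCh38.p14, run 5′ to 3′ on the strand of the gene, and hold 250 bases before and 50 bases from the annotated start. Capitals mark matches to TGCAAAT, the octamer core read by OCT4, or to ACAAAG or ACAATG, cores read by SOX2, on either strand, so that CTTTGT is ACAAAG on the other strand. DPPA4 lies on the minus strand (chr3:109337497-109337796), DPPA2 on the minus strand (chr3:109316468-109316767) and L1TD1 on the plus strand (chr1:62194599-62194898).

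DPPA4: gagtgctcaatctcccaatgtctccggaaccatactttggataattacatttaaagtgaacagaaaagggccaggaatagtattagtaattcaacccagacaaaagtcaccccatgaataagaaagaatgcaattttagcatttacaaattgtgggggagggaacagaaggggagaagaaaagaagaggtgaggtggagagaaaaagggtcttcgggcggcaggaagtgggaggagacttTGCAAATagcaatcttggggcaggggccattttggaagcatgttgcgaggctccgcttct

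DPPA2: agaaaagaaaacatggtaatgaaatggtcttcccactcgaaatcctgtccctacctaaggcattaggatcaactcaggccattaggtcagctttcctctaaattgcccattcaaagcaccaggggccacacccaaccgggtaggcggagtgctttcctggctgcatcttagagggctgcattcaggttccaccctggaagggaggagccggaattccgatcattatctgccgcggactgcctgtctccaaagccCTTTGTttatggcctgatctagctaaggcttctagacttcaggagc

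L1TD1: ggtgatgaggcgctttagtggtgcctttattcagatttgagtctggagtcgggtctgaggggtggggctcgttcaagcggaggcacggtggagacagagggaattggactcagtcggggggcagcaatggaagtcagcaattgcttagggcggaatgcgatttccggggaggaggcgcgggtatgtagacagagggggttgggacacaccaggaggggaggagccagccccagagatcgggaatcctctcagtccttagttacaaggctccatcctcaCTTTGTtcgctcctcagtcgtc

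The DPPA4 promoter held TGCAAAT at positions -10 to -4 from the start, where the start is position 0. The motif is in 4.20% of the 35116 promoters of 300 bases in the same table. DPPA2 held CTTTGT at positions 4 to 9 and L1TD1 at 28 to 33, as did ZFP42 at 8 to 13 and ZSCAN10 at -126 to -121. ACAAAG is in 16.1% and ACAATG in 10.8% of all promoters on either strand. DPPA5 and UTF1 had none of the motifs in this window. Sequences were found for 7 of the 8 genes. These letters describe the promoters and are no evidence of a bound site. The build differs from hg19, in which the peaks are placed, so positions in the letters were not set against peak summits. Nor were the annotated starts matched to the starts from which peak distances were measured. For ZSCAN10 the window was chr16:3099245-3099544 on GRCh38.p14, and its peak distances ran from 3142861 on hg19. These may be different starts.

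Peaks of all 3 factors were found beside most of the marker genes in both lines. In NT2/D1, 7 genes had a SOX2 peak, against 55.1% of all genes, 8 had an OCT4 peak, against 75.7%, and 7 had a NANOG peak, against 55.3%. In H9, 8 had a SOX2 peak, against 33.6% of all genes, 7 had an OCT4 peak, against 55.4%, and 7 had a NANOG peak, against 54.2%. DPPA2 was the gene without a peak in each list that missed 1. A peak somewhere within 50 kb was thus common among all genes, and these counts say little about the markers.

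Merged regions with peaks of all the factors were less common among all genes. In NT2/D1, 6 of the 8 genes had a region of all 3 factors, against 5.61% of all genes. In H9, 7 of the 8 had one, against 17.1% of all genes. A single region with a peak in all 6 lists lay beside each of DPPA4, DPPA5, ZFP42, UTF1, L1TD1 and PODXL, that is 6 of the 8 genes, against 3.22% of all genes. The 2 others were DPPA2 and ZSCAN10. For 7 of the 8 genes, peaks of the 2 lines overlapped in SOX2 (7.53% of all genes), in OCT4 (20.5%) and in NANOG (8.89%). By the source names of the NT2/D1 libraries, 6 markers shared OCT4 peaks, against 7.19% of all genes, and 7 shared NANOG peaks, against 20.2%. The genes had been picked as pluripotency markers with earlier results of these lists known, and these shares were given no test.

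Of the 61 regions, 17 (27.9%) held peaks of both lines, 29 held peaks of NT2/D1 only and 15 of H9 only. Over all 148059 regions, 13602 (9.19%) held peaks of both lines. A single list accounted for 35 regions (57.4%), against 80.3% of all regions, and 6 regions (9.84%) held a peak of every list, against 0.823% of all regions. None of those 6 regions covered the TSS of its gene. They lay between 2.08 and 48.7 kb from it, 2 upstream and 4 downstream.

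**Figure D1:**
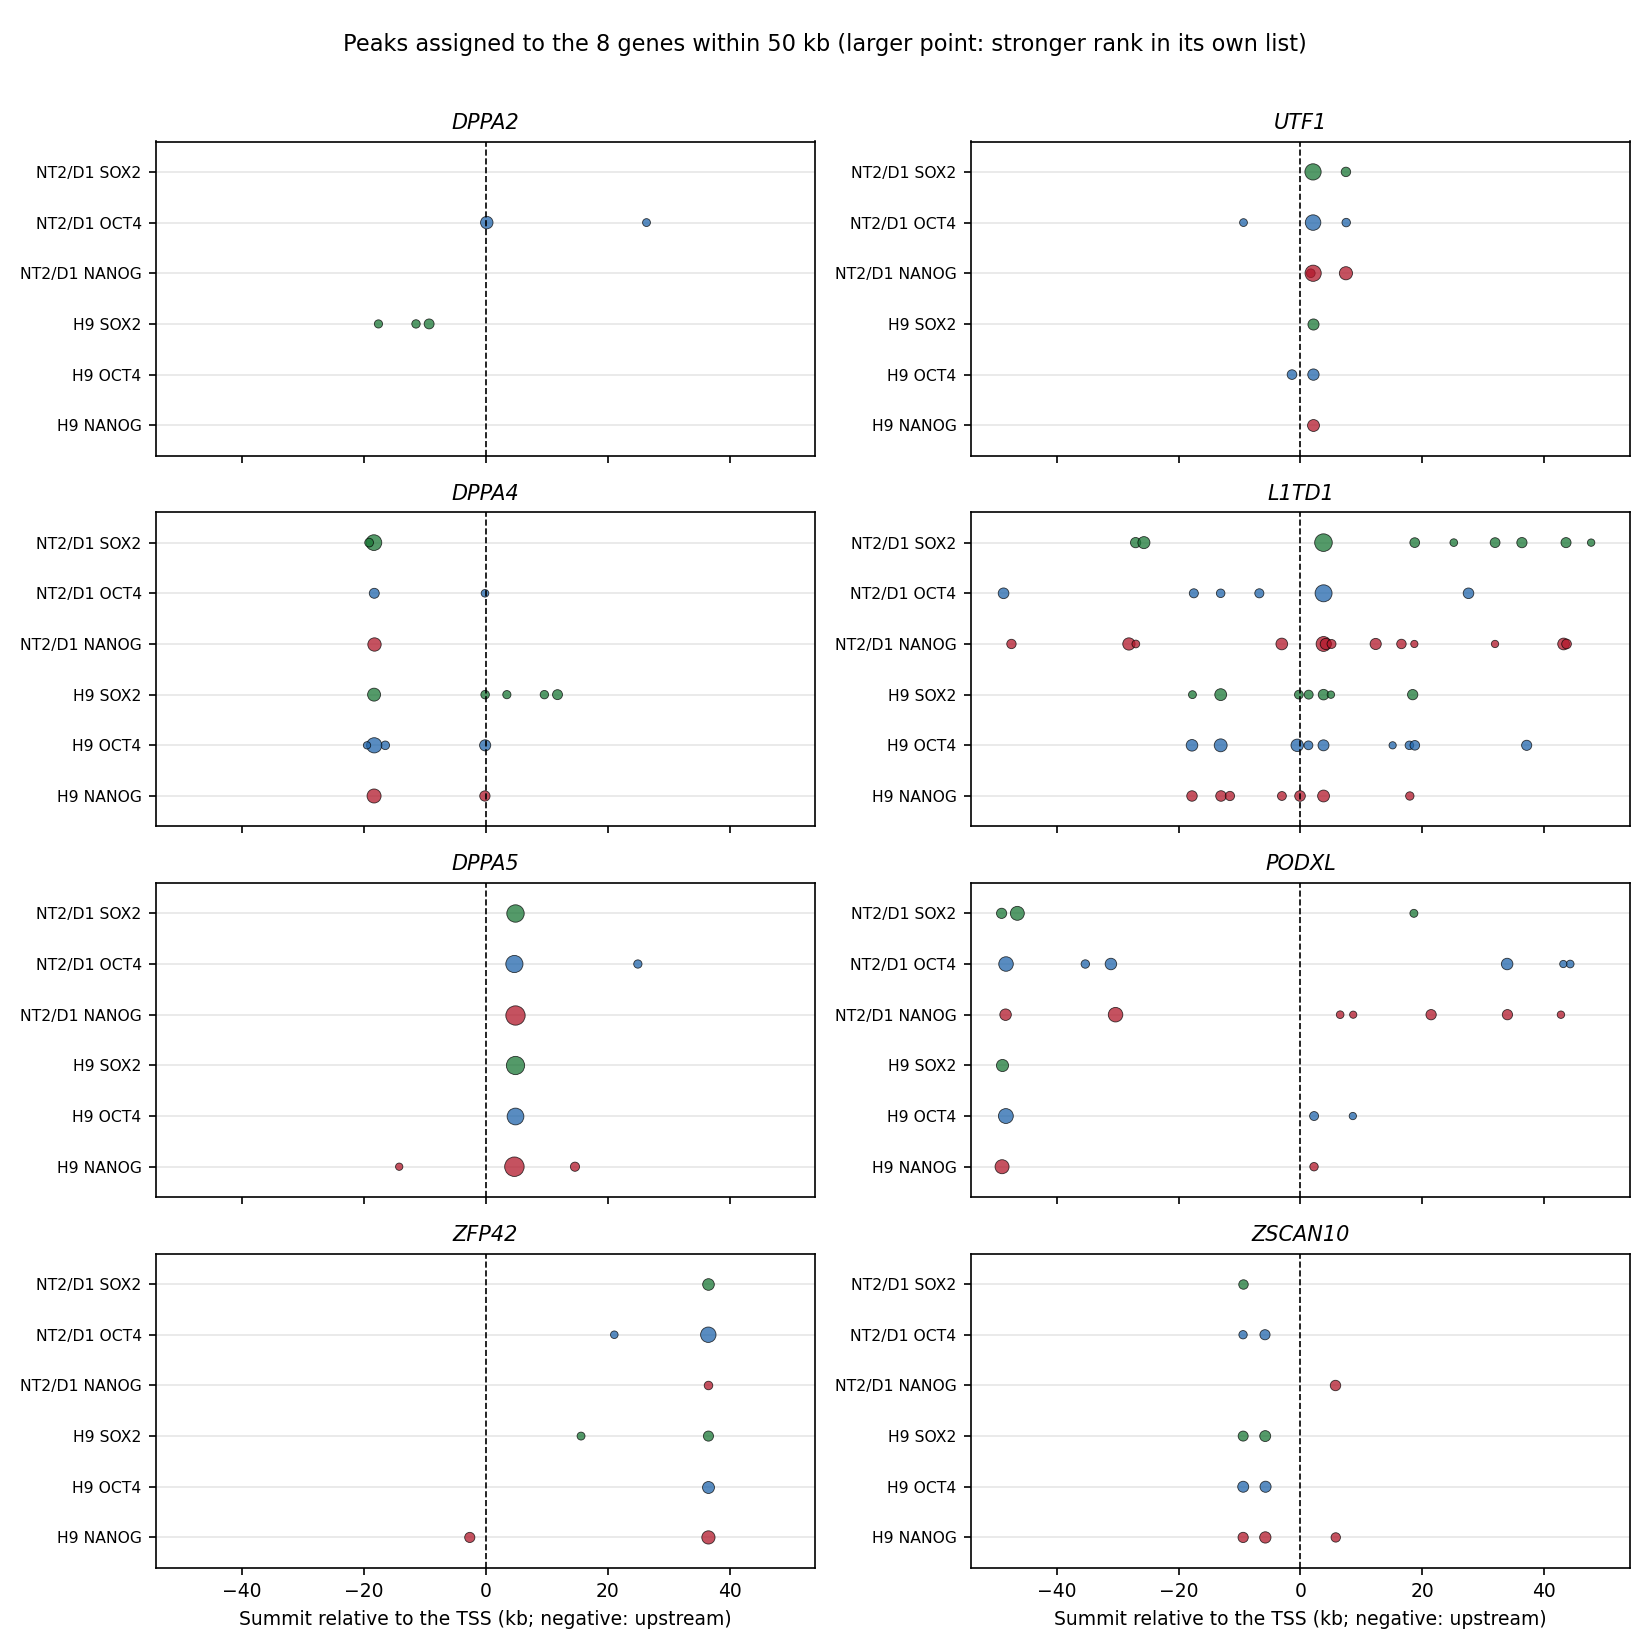
Peaks beside each gene, with the distance of the peak summit from the TSS on the x axis (kb, negative upstream) and the 6 libraries on the y axis of each panel, NT2/D1 above H9. The columns of points that run through every library are the regions called in all 6 lists, which lie from 2.08 kb (UTF1) to 48.7 kb (PODXL) from the TSS.

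DPPA5, also called ESG1, encodes a KH-domain protein that binds RNA. It had the strongest peaks of the 8 genes, with the top rank among them in 5 of the 6 lists. The peaks lay in 1 region (hg19, chr6:74058228-74059812) 4.74 kb downstream of the TSS. In NT2/D1 this region held 74 SOX2 tags at a fold of 19.8, 44 OCT4 tags at a fold of 18.3 and 101 NANOG tags at a fold of 19.7. In H9 it held 297 SOX2 tags at a fold of 23.9, 205 OCT4 tags at a fold of 10.3 and 479 NANOG tags at a fold of 40.3. All 6 peaks were within the top 0.5% of their lists. Their ranks were 101 (SOX2), 149 (OCT4) and 17 (NANOG) in NT2/D1 and 25, 134 and 15 in H9.

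The authors' FDR for this region was 39.6% (SOX2), 2.68% (OCT4) and 100% (NANOG) in NT2/D1, against 8% (SOX2), 7.46% (OCT4) and 0% (NANOG) in H9. A filter on FDR would have dropped the NT2/D1 NANOG peak at rank 17. The other gene the authors list for the region was C6orf221, whose TSS was 12.6 to 13 kb away, so the region counts for both genes. Both starts lie on the same side of the region. Apart from it DPPA5 had 1 further NT2/D1 OCT4 peak and 2 further H9 NANOG peaks, each in a region of its own.

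DPPA4 and DPPA2 are neighbours on chromosome 3, on the same strand with starts 21.1 kb apart, and encode SAP-domain chromatin proteins that act as a pair. The peaks lay mainly beside DPPA4. It had 5 peaks in NT2/D1 and 11 in H9, while DPPA2 had 2 in NT2/D1 and 3 in H9. DPPA4 had a distal region upstream of its start, 18.3 kb away (hg19, chr3:109074263-109076164), that was called in all 6 lists. Where a list has several peaks in a region, the values are those of the strongest. In NT2/D1 the distal region held 32 SOX2 tags at a fold of 16.5, 9 OCT4 tags at a fold of 7.67 and 17 NANOG tags at a fold of 9.39. In H9 it held 175 SOX2 tags at a fold of 9.61, 164 OCT4 tags at a fold of 7.28 and 195 NANOG tags at a fold of 13.1. A second, weaker peak in the region held 13 tags in NT2/D1 SOX2, and another held 35 tags in H9 OCT4.

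Within NT2/D1 the distal DPPA4 region stood at the top 0.989% for SOX2, 4.99% for NANOG and 32.4% for OCT4. Within H9 it stood at the top 6.46% (SOX2), 1.44% (OCT4) and 3.24% (NANOG). The NT2/D1 OCT4 peak was the weak member of this set, at 9 tags in the shallowest library (95% exact Poisson interval 4.12 to 17.1 tags). Such intervals cover counting error only.

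A further region covered the DPPA4 start (hg19, chr3:109056066-109057177), with summits 72 to 117 bp upstream of it. In NT2/D1 only OCT4 was called there, with 12 tags at a fold of 7.85, near the foot of its list at the top 86.2%. In H9 the region held 91 SOX2 tags at a fold of 5.75, 87 OCT4 tags at a fold of 5.91 and 81 NANOG tags at a fold of 5.13. The strongest distal peak held fewer tags than the promoter peak in NT2/D1 OCT4 and more in each H9 list. The remaining peaks were in H9 alone: 3 SOX2 peaks between the starts of DPPA2 and DPPA4, which count for both genes, and 1 OCT4 peak beside the distal region.

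DPPA2 itself had no SOX2 or NANOG peak assigned in NT2/D1 and no OCT4 or NANOG peak assigned in H9. Its NT2/D1 OCT4 peak of 20 tags at a fold of 10.1 covered the TSS (hg19, chr3:109034928-109035624) and ranked in the top 8.73%. A second NT2/D1 OCT4 peak lay 26.4 kb downstream. The H9 SOX2 peaks lay 9.26, 11.4 and 17.6 kb upstream, and the strongest of them held 123 tags at a fold of 2.94 and ranked in the top 32.8%. The distal DPPA4 region is also near DPPA2, with its edge 38.9 kb from the DPPA2 start. The authors name the closest gene that a peak lies upstream of and the closest that it lies downstream of. The distal region is thus listed for DPPA4 and not for DPPA2. The other gene listed for it was C3orf66, 177 to 178 kb away.

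UTF1 encodes a chromatin-associated protein, and in the mouse its 3′ flank carries an enhancer bound by Oct4 and Sox2. The strongest peaks of the human gene lay 2.08 kb downstream of its TSS (hg19, chr10:135045268-135046282), and all 6 lists had one. In NT2/D1 the strongest peaks of the region held 27 SOX2 tags at a fold of 17.7, 44 OCT4 tags at a fold of 19.5 and 29 NANOG tags at a fold of 29.8, beside a second NANOG peak of 8 tags. Its H9 peaks held 87 SOX2 tags at a fold of 8.9, 54 OCT4 tags at a fold of 6.38 and 80 NANOG tags at a fold of 12.5. In NT2/D1 these peaks were in the top 0.658% (SOX2), 1.16% (OCT4) and 0.684% (NANOG). In H9 they were in the top 18.3%, 16.2% and 12.1% for the same factors.

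A weaker region lay 7.47 kb downstream of the UTF1 start (hg19, chr10:135050944-135051589), at the start of VENTX, a homeobox gene. In NT2/D1 it held 9 SOX2 tags, 7 OCT4 tags and 12 NANOG tags, and in H9 it held 32 SOX2 tags and 58 NANOG tags. OCT4 was not called there in H9. The H9 peaks cover the VENTX TSS and name no gene but VENTX, so they are not among the peaks counted for UTF1. UTF1 also had an NT2/D1 OCT4 peak 9.34 kb upstream and an H9 OCT4 peak 1.39 kb upstream, each in a single list.

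ZFP42, also called REX1, encodes a zinc finger protein related to YY1 and is among the most used markers of undifferentiated cells. Its region of all 6 lists lay 36.5 kb downstream of the TSS (hg19, chr4:188953117-188954162), and the next gene on the other side was TRIML1, 106 to 107 kb away. In NT2/D1 it held 13 SOX2 tags at a fold of 9.37, 26 OCT4 tags at a fold of 23.7 and 8 NANOG tags at a fold of 6.48. Its H9 peaks held 86 SOX2 tags at a fold of 5.84, 86 OCT4 tags at a fold of 5.77 and 137 NANOG tags at a fold of 14.0. In NT2/D1 the OCT4 peak was in the top 1.25%, against 13.8% for SOX2 and 60.6% for NANOG. In H9 the NANOG peak was in the top 5.46%, against 11.7% for OCT4 and 30.3% for SOX2. By titles the factor with the highest rank was OCT4 in NT2/D1 and NANOG in H9, while by the source names it was NANOG in both. Each rank is within its own list, and the lists differ in length and depth, so no change between the lines can be read from them.

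The NT2/D1 NANOG value at ZFP42 rests on 8 tags (95% exact Poisson interval 3.45 to 15.8). No peak covered the ZFP42 start. The nearest was an H9 NANOG peak 2.60 kb upstream (hg19, chr4:188913954-188915149). An NT2/D1 OCT4 peak lay 21.1 kb downstream and an H9 SOX2 peak 15.7 kb downstream, each in 1 list.

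ZSCAN10 encodes a SCAN-domain zinc finger factor, which in mouse embryonic stem cells works with Oct4 and Sox2. It had 3 regions, all of them called in both lines, and none in all 6 lists. Their distances are from the TSS in the authors' lists, and another annotated start would give other distances. The region 5.77 kb upstream (hg19, chr16:3147430-3149809) held 12 OCT4 tags in NT2/D1, against 130 SOX2 tags, 66 OCT4 tags and 163 NANOG tags in H9. The region 9.40 kb upstream (hg19, chr16:3151720-3152651) held 12 SOX2 tags and 7 OCT4 tags in NT2/D1, against 66 SOX2 tags, 81 OCT4 tags and 65 NANOG tags in H9. A region 5.72 kb downstream (hg19, chr16:3136739-3137868) was called for NANOG alone, with 9 tags in NT2/D1 and 57 tags in H9. Both upstream regions held every factor in H9. In NT2/D1 SOX2 was called at 1 of them, and the library titled OCT4 at both, which by its source name would be NANOG.

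The strongest ZSCAN10 peaks were moderate in every list. They stood at the top 40.4% (SOX2), 29.9% (OCT4) and 25.9% (NANOG) in NT2/D1, and at the top 20.3%, 18.5% and 16.4% in H9. The other genes the authors list beside these peaks were MGC3771 and ZNF205.

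L1TD1 encodes an RNA-binding protein that derives from a LINE-1 element. It had the most peaks in total of the 8 genes, 51, with 9 (SOX2), 6 (OCT4) and 13 (NANOG) in NT2/D1 and 7 (SOX2), 9 (OCT4) and 7 (NANOG) in H9. Over the 6 lists 0.0153% of all genes had as many peaks or more. The peaks fell into 26 regions, of which 6 held peaks of both lines, 15 of NT2/D1 only and 5 of H9 only. Of these regions 15 came from a single list. The authors' lists name USP1 or KANK4 as the other gene of its strongest peaks.

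The L1TD1 region of all 6 lists lay 3.78 kb downstream of the TSS (hg19, chr1:62663272-62664893). In NT2/D1 its strongest peaks held 77 SOX2 tags at a fold of 15.7, 76 OCT4 tags at a fold of 14.5 and 19 NANOG tags at a fold of 13, beside a second NANOG peak of 13 tags. In H9 it held 125 SOX2 tags at a fold of 5.40, 76 OCT4 tags at a fold of 4.37 and 130 NANOG tags at a fold of 7.32. In NT2/D1 these peaks ranked 87 (SOX2), 174 (OCT4) and 624 (NANOG), all within the top 1.82% of their lists. In H9 they were at the top 24.3% (SOX2), 19.8% (OCT4) and 12.3% (NANOG).

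In H9 the strongest SOX2 and OCT4 peaks of L1TD1 were elsewhere, 13.1 kb upstream (hg19, chr1:62646388-62647902). That region held 16 OCT4 tags in NT2/D1, against 138 SOX2 tags, 111 OCT4 tags and 63 NANOG tags in H9. The L1TD1 start was covered in H9 alone (hg19, chr1:62659762-62660649), with 45 SOX2 tags at a fold of 4.03, 77 OCT4 tags at a fold of 4.68 and 56 NANOG tags at a fold of 6.14. The OCT4 peak there was in the top 8.86% of its list, and the SOX2 peak in the top 55.4%. Among the 8 genes, a peak covered the TSS of 2 in NT2/D1 (DPPA2 and DPPA4, against 11.3% of all genes). In H9 it covered the TSS of 2 (DPPA4 and L1TD1, against 7.13%). These counts use the TSS in the authors' lists, and other annotated starts were not tried.

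PODXL encodes podocalyxin, a sialomucin that carries surface antigens used to sort human pluripotent cells. It had 16 peaks in NT2/D1 and 6 in H9, in 12 regions, of which 9 were called in NT2/D1 only. Its region of all 6 lists was the most distant from a TSS among the 6 such regions, 48.7 kb upstream (hg19, chr7:131288741-131291279), with MKLN1 listed as its other gene, 276 to 277 kb away. In NT2/D1 it held 86 SOX2 tags at a fold of 5.10, 114 OCT4 tags at a fold of 4.88 and 63 NANOG tags at a fold of 6.79. Its H9 peaks held 230 SOX2 tags at a fold of 6.30, 212 OCT4 tags at a fold of 6.90 and 266 NANOG tags at a fold of 10.2. These are high tag counts at moderate folds, and the peaks were wide, from 1517 to 2125 bp.

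The PODXL region led for OCT4 in NT2/D1 and for every factor in H9. In NT2/D1 it stood at the top 2.31% for OCT4, but 28.9% for SOX2 and 14.9% for NANOG. In H9 it stood at the top 10.5% (SOX2), 1.84% (OCT4) and 3.28% (NANOG). The strongest NT2/D1 SOX2 peak was the neighbouring one 46.4 kb upstream, with 91 tags in the top 3.44%, and the strongest NT2/D1 NANOG peak lay 30.3 kb upstream, with 53 tags in the top 2.32%. No peak covered the PODXL start, and peaks of H9 OCT4 and NANOG 2.22 to 2.23 kb downstream were the nearest.

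**Figure D2:**
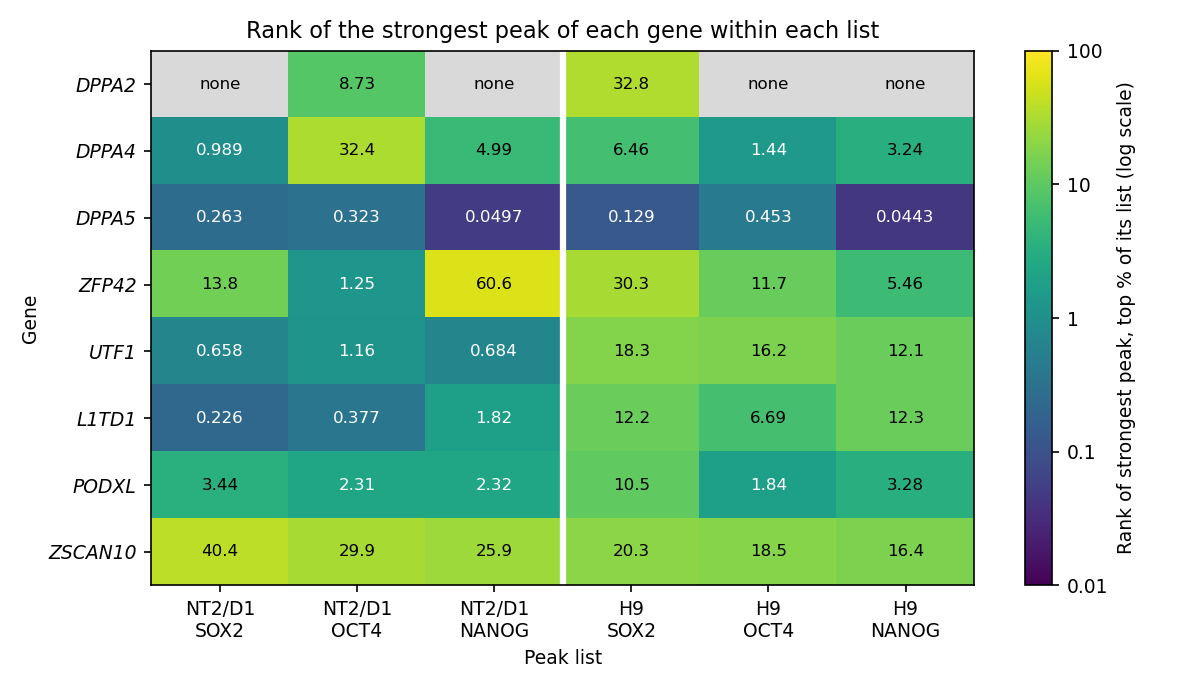
Strongest peak of each gene (rows) in each list (columns), as the rank by score in percent of that list (log colour scale), NT2/D1 left of H9. A grey cell marked none is a list without a peak for the gene. DPPA5 is within the top 0.5% throughout, and ZSCAN10 is never higher than the top 16.4%.

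The strongest peaks were high in their lists compared with those of other genes, which were not matched for number of peaks. The strongest of many peaks tends to rank higher. L1TD1 had 51 peaks over the 6 lists and PODXL 22, and 0.0153% and 2.38% of all genes had as many. DPPA2 had 5, and 56.1% of all genes had as many. The median top percentage over the marker genes with a peak was 0.989 (SOX2), 1.78 (OCT4) and 2.32 (NANOG) in NT2/D1, and 15.2, 6.69 and 5.46 in H9. Over all genes with a peak it was 33.0, 30.7 and 32.5 in NT2/D1 and 43.7, 42.3 and 42.6 in H9. In NT2/D1 4 markers were in the top 1% for SOX2, against 1.06% of all genes, 2 for OCT4, against 1.38%, and 2 for NANOG, against 0.860%. In H9 DPPA5 alone was in the top 1% of each list, against 0.468% of all genes (SOX2), 0.697% (OCT4) and 0.763% (NANOG). These values describe 1 library each, and the order of the genes within a line can be read from them while a change between the lines cannot.

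The order of the genes was not the same in every list. UTF1 ranked ahead of DPPA4 and PODXL in each NT2/D1 list, and behind both in each H9 list. L1TD1 led the genes in NT2/D1 SOX2 and held place 4 in H9 SOX2. DPPA4 held place 4 (SOX2), 8 (OCT4) and 5 (NANOG) in NT2/D1, and came next to DPPA5 in each H9 list.

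At the regions of all 6 lists the summits of the factors lay close together. The summits of the 6 lists spanned 16 bp at L1TD1, 26 bp at ZFP42, 51 bp at DPPA5, 68 bp at UTF1, 101 bp at DPPA4 and 725 bp at PODXL. Across all 1218 regions with a peak in every list the median span was 67 bp (25th to 75th percentile, 43 to 128 bp). A span as small as that of L1TD1 or smaller was found in 1.31% of them, and as small as that of ZFP42 in 5.67%, while 94.8% were at or below that of PODXL. The PODXL summits formed a pair of groups. Those of NT2/D1 SOX2, H9 SOX2 and H9 NANOG lay 48.9 to 49.0 kb upstream, and those of NT2/D1 OCT4, NT2/D1 NANOG and H9 OCT4 lay 48.3 to 48.4 kb upstream.

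**Figure D3:**
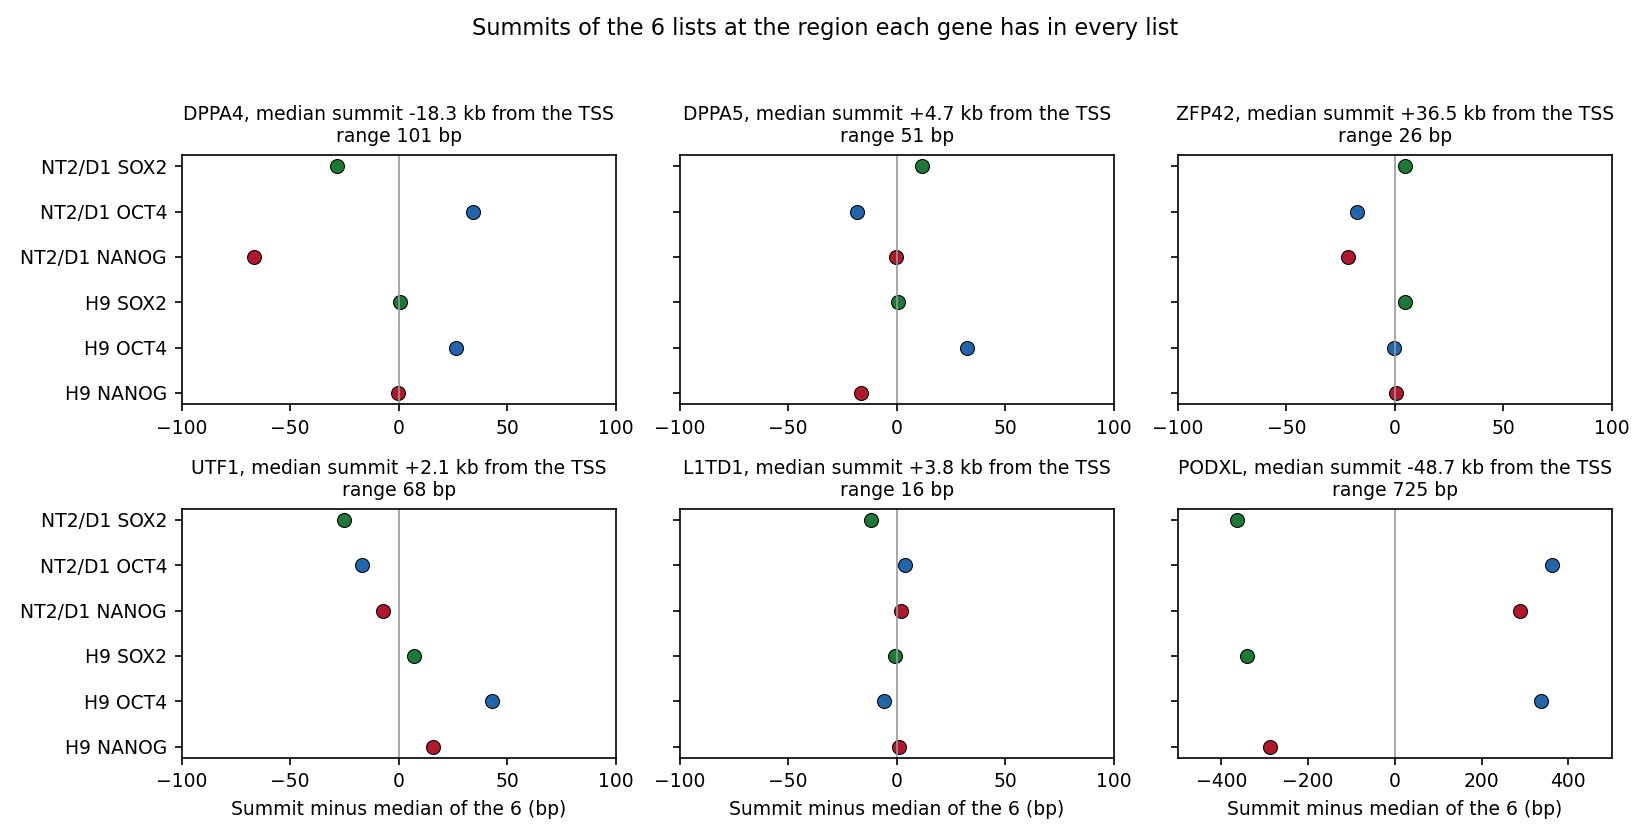
Peak summits at the region that 6 of the genes have in every list, as the distance from the median summit (bp) on the x axis, with the 6 libraries on the y axis, NT2/D1 above H9. The PODXL panel has a wider axis than the others: its summits span 725 bp, against 16 bp at L1TD1 and 101 bp at DPPA4.

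Beside the number of peaks of a gene stands the share of all peaks on its chromosome, which differed between the lines. L1TD1 on chromosome 1 had 28 peaks in NT2/D1 and 23 in H9, and PODXL on chromosome 7 had 16 in NT2/D1 and 6 in H9. Relative to the mean share in the H9 lists, chromosome 1 held 2.10 times as much of the peaks in NT2/D1 SOX2, 1.41 times in OCT4 and 2.09 times in NANOG. For chromosome 7 the ratio was 1.93 in SOX2, 1.35 in OCT4 and 1.92 in NANOG. DPPA5 on chromosome 6 had 4 peaks in NT2/D1 and 5 in H9, beside ratios of 0.294, 0.598 and 0.294. ZFP42 on chromosome 4 also had 4 peaks in NT2/D1 and 5 in H9, beside ratios of 0.428, 0.583 and 0.396. UTF1 on chromosome 10 had 8 peaks in NT2/D1 and 4 in H9, beside ratios of 0.459, 0.745 and 0.453. DPPA4 and DPPA2 on chromosome 3 had 5 and 2 peaks in NT2/D1 and 11 and 3 in H9, beside ratios of 1.33, 1.15 and 1.25. ZSCAN10 on chromosome 16 had 4 peaks in NT2/D1 and 7 in H9, beside ratios of 0.960, 1.22 and 1.15. The totals are raw counts from lists of different lengths, while the ratios compare shares, so the 2 are not on the same scale. Of the H9 SOX2 peaks, 3 count for both DPPA2 and DPPA4. The part of these shares in the peak numbers was not tested.

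**Figure D4:**
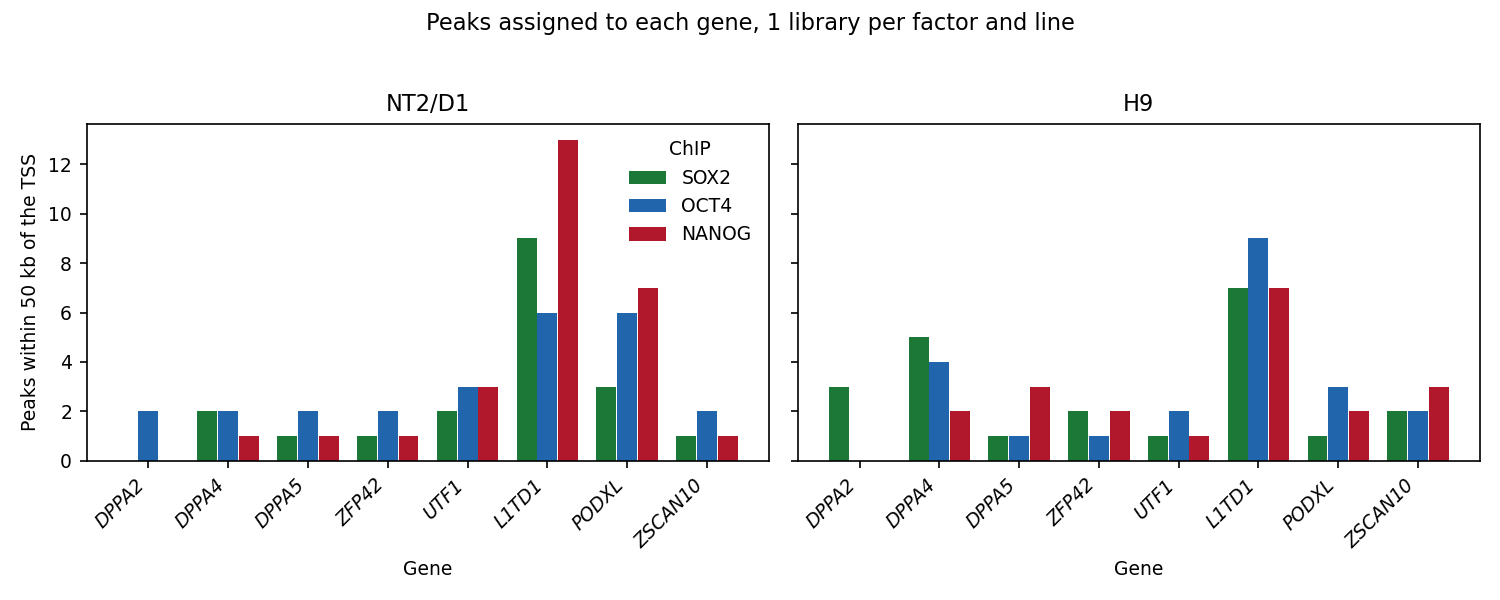
Number of peaks within 50 kb of the TSS of each gene (y axis), by factor, in NT2/D1 (left) and H9 (right), 1 library per bar and so without error bars. L1TD1 has 6 to 13 peaks in each list, level with PODXL in NT2/D1 OCT4 and ahead of the other genes elsewhere, and DPPA2 has none in 4 of the 6 lists.

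A larger part of the marker peaks lay within 5 kb of a TSS in H9. In NT2/D1 this held for 3 of 19 SOX2 peaks (15.8%), for 5 of 25 with OCT4 and for 7 of 27 with NANOG (25.9%). In H9 it held for 9 of 19 SOX2 peaks (47.4%), for 8 of 22 with OCT4 (36.4%) and for 10 of 20 with NANOG. Of all peaks assigned to a gene, 21.7% (SOX2), 33.9% (OCT4) and 23.8% (NANOG) in NT2/D1 and 25.2%, 36.7% and 31.4% in H9 were as near. Peaks beside 1 gene are not independent of each other, and L1TD1 alone gave 51 of the 135 pairs of a peak and a gene.

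A wider list of 28 other pluripotency genes was described in the same way. In NT2/D1 14 of them had a region of all 3 factors and in H9 20 did, and 13 had a region of all 6 lists. Of 22 genes of differentiated cells 2 in NT2/D1 and 11 in H9 had a region of all 3 factors, and 2 had one of all 6 lists. The shares over all genes were 5.61% in NT2/D1, 17.1% in H9 and 3.22% for all 6 lists. In H9 the genes of differentiated cells thus also stood above the share of all genes. The percentile of a gene's strongest peak, counted from the weakest peak of the list and set to 0 where there was none, was averaged over the 6 lists. Its median was 91.8 over the 8 markers, 87.2 over the other pluripotency genes, 45.9 over the genes of differentiated cells and 28.4 over all genes. DPPA5 had 99.8, PODXL 96.1, L1TD1 94.4, UTF1 91.8, DPPA4 91.7, ZFP42 79.4, ZSCAN10 74.8 and DPPA2 26.4. The 5 highest of the wider list were TERF1 with 99.7, POU5F1 (the gene of OCT4) with 99.6, TRIM71 with 99.4, OTX2 with 99.1 and FOXD3 with 97.8. DPPA5 thus stood level with the best of them, and DPPA2 stood below the median of all genes.

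The genes whose strongest peaks were most like those of each marker were found by the largest difference of this percentile in any of the 6 lists. For DPPA5 these were C6orf221, with a difference of 0 because it shares the peaks, and UBE2D2 with 0.368. For UTF1 they were VENTX, which shares the peaks and differed by 0, and TEAD4 with 3.30. For PODXL they were ENPP6 with 1.68 and ZEB2 with 2.68, and for L1TD1 SFRS15 with 3.85 and EPHB3 with 3.91. For DPPA4 they were SGMS2 with 5.04 and FLJ35776 with 5.55, for ZFP42 TCF12 with 5.74 and CDC14B with 8.05, and for ZSCAN10 ACOXL with 6.95 and GPR116 with 7.88.

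The distance limit cut through the surroundings of L1TD1, PODXL and UTF1. Just inside it were the PODXL region of all 6 lists, whose peaks had their near edge 47.4 to 48.1 kb from the TSS, and L1TD1 peaks at 47.2 to 48.5 kb in NT2/D1. Just outside it were an NT2/D1 SOX2 peak of L1TD1 at 50.7 kb, with 19 tags, and an H9 NANOG peak of L1TD1 at 51.8 kb, with 49 tags. An NT2/D1 NANOG peak of PODXL lay at 52.9 kb, at a fold of 7.04, and one of UTF1 at 54 kb, at a fold of 6.16.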

How the data were processed

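SOX2, OCT4 and NANOG ChIP-seq in NT2/D1 and H9 was taken from 6 deposited peak lists, 1 library per factor and line. The 2 IgG samples were not analysed here. Per the file headers, the authors called peaks with MACS for each library singly, with an IgG library as control. The p-value cutoff was 0.001, the tag size 50, and the model fold 3, or 5 for NT2/D1 OCT4, per the file headers. Coordinates are on hg19, per the submitters' processing notes. Neither the aligner nor the MACS version is given in the sources used here. The IgG library had 2937004 unique tags for NT2/D1 SOX2 and NANOG, 6479071 for NT2/D1 OCT4 and 58012070 for all H9 lists, per the file headers.

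Per peak, the authors deposited a raw count of ChIP tags, a fold enrichment (a ratio over the control) and an FDR in percent. The deposited score has a damaged column name and a lowest value of 30 in every list, and it served only to rank peaks within a list.

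A peak was assigned to each gene that the authors name beside it within 50 kb. Gene names damaged into dates (556 fields) were restored by accession. TSS positions were recovered from the deposited distances, for genes other than the markers where at least 2 distances gave the same position. Lists were merged at an overlap of 1 bp, a step that was tested on simulated peaks. The background is the share of the 19657 named genes that meet the same rule. Tag counts carry exact Poisson intervals at 95%. Python 3.11.15, pandas 2.3.3, numpy 2.4.6 and matplotlib 3.10.9 were used.

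No test between libraries was possible. The genes named are the 8 markers, the other gene beside their strongest peaks, the 2 genes most like each marker with peaks in 4 or more lists, and the 5 highest of the wider pluripotency list. The markers, the lists and the alternatives were chosen with earlier results of these data known. The alternatives were limits of 5 and 20 kb, the nearer gene only, the upper 50% or the 10000 highest scores of each list, summits within 200 bp, ranking by fold or by tag count, and the exchanged OCT4 and NANOG names.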

Additional observations from a re-analysis of the deposited data

How the results depend on the processing

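No paired analysis was possible because each factor and line had 1 library and no result came from a test. Of 140 values under other settings, 110 were within 1.5 times the main value and 30 were lower. The 110 include counts that the exchange of the NT2/D1 OCT4 and NANOG names could not change. With a limit of 5 kb, a peak was left for 3 (SOX2), 5 (OCT4) and 3 (NANOG) markers in NT2/D1, against 17.3%, 38.5% and 18.4% of all genes, and for 5 (SOX2) in H9, against 9.59%. At that limit 3 had all 3 factors in NT2/D1 (1.38% of all genes) and 3 had all 6 lists (0.712%). Regions were shared by the lines at 3 (SOX2), 4 (OCT4) and 4 (NANOG) markers, against 1.65%, 7.42% and 2.4% of all genes. Peaks fell to 3, 5 and 7 in NT2/D1 and 9, 8 and 10 in H9. With a limit of 20 kb, the NT2/D1 lists held 9, 13 and 15 peaks. The upper 50% of scores left 14 NT2/D1 OCT4 and 11 H9 SOX2 peaks. Among the 10000 highest scores of each list, 3 markers had all 3 factors in NT2/D1 (2.66% of all genes) and 3 had all 6 lists (1.84%), with 7, 8 and 15 peaks in NT2/D1 and 12, 13 and 13 in H9. Ranking by tag count changed the strongest peak in 1 list each for DPPA4, PODXL and ZSCAN10 and in none for the other markers. Ranking by fold kept the strongest peak in 1 of 2 lists for DPPA2 and 3 of 6 for PODXL.

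Taking the nearer gene only or asking for summits within 200 bp moved no count over the markers by over 1.5 times. Nor did exchanging the NT2/D1 OCT4 and NANOG names. That exchange could give new counts only for OCT4 and NANOG regions shared by the lines. Every other count was fixed under it or traded places between the NT2/D1 lists. The exchange did move the shares of all genes with a region shared by the lines, to 7.19% for OCT4 (20.5% by titles) and 20.2% for NANOG (8.89% by titles). A further pair of alternatives was chosen after seeing the data. When any peak within 50 kb of the TSS counted, whichever genes are named, all 8 markers had a peak in every list, against 43% to 86.1% of the 18192 genes with a recovered TSS. Then 7 had a region of all 6 lists, DPPA2 included, against 4.38%. Without the NT2/D1 SOX2 and NANOG lists, 7 markers had a region of the 4 other lists, against 10.4% of all genes. Depth limits the precision of the NT2/D1 tag counts, since peaks described there rest on as few as 5 tags. Its part in which peaks were called was not tested.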
